A study of Homo sapiens with 18 samples.

Results

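The keratin genes of PANC-1 cells, a line established from a human pancreatic ductal carcinoma, were examined after knockdown (KD) of NAT10. The 7 genes KRT7, KRT8, KRT18, KRT19, KRT10, KRT80 and KRT81 were chosen by name, and they are 7 of the 55 keratin genes among the 58302 genes of the expression table. PANC-1 cells carried either a control vector (shCtrl) or a vector with an shRNA against NAT10 (shNAT10), and both vectors were delivered by lentivirus into stable lines. For RNA-seq there were 3 libraries per group, and for acRIP-seq, an immunoprecipitation of RNA fragments with an antibody against N4-acetylcytidine (ac4C), there were 3 IP and 3 input libraries per group. Each group is 1 stable line, whether it is a clone or a pool is not stated, and nothing says that the 3 libraries came from separate cultures, so p-values measure only the spread between libraries. The labels describe the control vector as empty while the study's oligonucleotide list gives a non-targeting shRNA, and which NAT10 shRNA was used is not stated in the labels.

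Keratins are the intermediate filament proteins of epithelial cells. A filament is built from pairs of 1 acidic type I chain (here KRT18, KRT19 and KRT10) and 1 basic type II chain (here KRT8, KRT7, KRT80 and KRT81). KRT8 with KRT18 is the pair of simple epithelia, and KRT7 with KRT19 is the pair that marks ducts, including those of the pancreas. KRT10 is known from the upper layers of the epidermis, KRT80 from many epithelia and KRT81 from the hair shaft. NAT10 is the acetyltransferase that writes ac4C on RNA.

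Of the 8 acRIP-seq peaks on these genes, 7 had the middle of their bases on the spliced transcript in coding sequence. Coding stretches from 3 of the genes are shown first to give the bases under shared and unshared peaks. The first is the KRT19 stretch that a peak of the shCtrl list and a peak of the shNAT10 list had in common. The second is the peak on KRT10, present in the shCtrl list only, and the third is a KRT7 peak present in the shNAT10 list only. Capitals mark every match of CNNCNNCNNCNN, a repeat of 4 cytosines, each followed by any 2 bases, read on the transcript strand only, with overlapping matches counted. Sequences are from the GENCODE v29 transcripts on GRCh38.
KRT19, chr17:41527859-41528039, minus strand, coding sequence: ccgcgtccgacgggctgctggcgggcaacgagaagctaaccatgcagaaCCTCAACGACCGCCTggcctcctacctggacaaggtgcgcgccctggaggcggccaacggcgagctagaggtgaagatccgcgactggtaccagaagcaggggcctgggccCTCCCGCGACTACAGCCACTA
KRT10, chr17:40818788-40818967, minus strand, coding sequence: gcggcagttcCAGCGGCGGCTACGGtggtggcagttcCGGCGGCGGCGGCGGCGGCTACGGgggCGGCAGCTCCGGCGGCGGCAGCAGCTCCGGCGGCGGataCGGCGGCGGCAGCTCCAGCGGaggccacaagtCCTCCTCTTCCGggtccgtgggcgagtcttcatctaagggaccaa
KRT7, chr12:52235248-52237569, plus strand, coding sequence spliced across an intron: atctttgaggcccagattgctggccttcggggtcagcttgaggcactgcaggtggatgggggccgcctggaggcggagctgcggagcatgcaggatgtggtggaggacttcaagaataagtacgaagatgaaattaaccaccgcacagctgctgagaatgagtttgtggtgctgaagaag
The stretch on KRT19 held 6 matches of the repeat, and the KRT10 peak held 21. The KRT7 peak seen only in the shNAT10 list held 0 matches and 18.9% cytosine. The second KRT19 peak of the shCtrl list, which had no overlap in the other list, held 2 matches and 26.7% cytosine over its 217 coding bases. Of 180615 windows of 180 bases cut from all coding sequences, 56% held at least 1 match.

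NAT10 itself fell in the knockdown cells. Its level was 31.6, 27.7 and 28.6 FPKM (fragments scaled by gene length and library size) in shCtrl replicates 1, 2 and 3 and 7.92, 8.43 and 7.9 FPKM in shNAT10, a log2 fold change of -1.84 ± 0.08 (SE, n = 3 per group, limma adjusted p = 3.85e-05). Between 15831720 and 23521762 reads lay on genes in each library. Of 13 markers of ductal epithelium, 9 passed the expression filter of at least 1 FPKM in at least 3 libraries, among them KRT7, KRT19, SOX9, CDH1 and EPCAM. CFTR, the chloride channel of duct cells, was listed at 0 in all libraries. VIM, the filament protein of mesenchymal cells, stood at 1174 FPKM in shCtrl and 1309 FPKM in shNAT10 cells. Keratins and junction genes of duct cells were thus present, and CFTR was listed at 0. No marker of acinar cells, endocrine cells, endothelium or stratified epidermis passed the filter. Of 5 fibroblast markers only COL1A1 passed, with a summed level of the list of 28.7 to 34.0 FPKM in shCtrl and 17.3 to 20.8 FPKM in shNAT10 libraries, while the other 4 (COL1A2, DCN, LUM and PDGFRA) stayed under 0.1 FPKM in every library. Of 5 blood cell markers only CD14 passed, with a sum of the list of 2.22 to 2.97 and 1.49 to 1.65 FPKM, and PTPRC was at most 0.0399 FPKM.

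To ask how the level of each keratin depends on NAT10, the 3 shNAT10 libraries were compared with the 3 shCtrl libraries. KRT8, KRT18, KRT19, KRT7 and KRT81 were lower in shNAT10 cells, KRT10 and KRT80 did not pass the test, and 0 of the 7 were higher by limma (0 also at an unadjusted p under 0.05, and 0 by voom on recovered reads). The fall was to 44.1% of the shCtrl mean for KRT8, to between 55.1% and 55.5% for KRT7, KRT18 and KRT19, and to 22.7% for KRT81. In bulk RNA, fewer cells with a given keratin and less of its RNA per cell cannot be told apart. Across all 12982 genes tested, 21.2% were lower and 20.8% were higher at an adjusted p under 0.05. Of the 7 genes, 2 (KRT8 and KRT81) were lower with a log2 fold change under -1, against 3.57% of all genes. The median log2 fold change of the 7 was -0.83, beside -0.01 over all genes tested.

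The order of levels in shCtrl cells was KRT8, KRT18, KRT19, KRT80, KRT7, KRT10 and KRT81, as FPKM, which is scaled by gene length. The libraries of neighbours in that order did not overlap down to KRT7. Those of KRT7 and KRT10, and those of KRT10 and KRT81, overlapped. In shNAT10 cells KRT7 and KRT10 overlapped as well, and KRT81 lay below both.

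Among the type II chains, KRT8 had the highest level. KRT8 (ENSG00000170421, chromosome 12, 52897187 to 52949954, minus strand) stood at 1556, 2009 and 1652 FPKM in shCtrl replicates 1, 2 and 3 and at 819, 769 and 711 FPKM in shNAT10. All shNAT10 libraries lay below all shCtrl libraries, and its log2 fold change was -1.18 ± 0.11 (SE, n = 3 per group, 95% confidence interval -1.44 to -0.92, limma adjusted p = 0.000361). KRT8 moved from rank 18 to rank 37 of all genes by mean FPKM.

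KRT7 (ENSG00000135480, chromosome 12, 52232520 to 52252186, plus strand), the ductal type II chain, was far lower. It stood at 6.93, 10.7 and 8.24 FPKM in shCtrl and 5.19, 4.52 and 4.55 FPKM in shNAT10 replicates 1, 2 and 3, with no overlap between the groups. The log2 fold change was -0.83 ± 0.16 (SE, n = 3 per group, limma adjusted p = 0.00609). These values rest on 141 to 379 reads per library.

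KRT80 (ENSG00000167767, chromosome 12, 52168996 to 52192000, minus strand) did not pass the test. It stood at 58.2, 58.8 and 56.2 FPKM in shCtrl replicates 1, 2 and 3 and 56.7, 59.2 and 57.2 FPKM in shNAT10, and the groups overlapped. The log2 fold change was 0.00 ± 0.06 (SE, n = 3 per group, limma adjusted p = 0.986), with a 95% confidence interval of -0.14 to 0.14. This interval lies apart from those of KRT8, KRT18, KRT19, KRT7 and KRT81.

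KRT81 (ENSG00000205426, chromosome 12, 52285913 to 52291534, minus strand), the hair keratin, showed the largest log2 fold change of the 7. It stood at 3.47, 5.84 and 4.63 FPKM in shCtrl and 1.146, 0.96 and 1.06 FPKM in shNAT10 replicates 1, 2 and 3, from 116 to 228 and 35 to 36 reads, with no overlap. The log2 fold change was -2.01 ± 0.20 (SE, n = 3 per group, limma adjusted p = 0.000435). The transcripts of KRT81 and its neighbour KRT86 are 96.6% identical over 1325 bases, so the division of reads between these 2 genes is uncertain. KRT86 was lower too, at 1.56, 2.32 and 1.90 FPKM in shCtrl and 0.855, 0.905 and 0.612 FPKM in shNAT10 cells (log2 fold change -1.18, limma adjusted p = 0.00626).

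Among the type I chains, KRT18 (ENSG00000111057, chromosome 12, 52948871 to 52952901, plus strand), the partner of KRT8, had the highest level. It stood at 961, 1352 and 1080 FPKM in shCtrl and 653, 633 and 595 FPKM in shNAT10 replicates 1, 2 and 3, with no overlap. The log2 fold change was -0.84 ± 0.13 (SE, n = 3 per group, 95% confidence interval -1.13 to -0.54, limma adjusted p = 0.00231). KRT8 and KRT18 lie side by side on opposite strands and share 525 exon bases, 16.3% of those of KRT18 and 7.63% of those of KRT8. The library kit kept the strand, but whether the counting used it is not stated, so reads from these 525 bases may be divided between the 2 genes.

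KRT19 (ENSG00000171345, chromosome 17, 41523617 to 41528308, minus strand), the ductal type I chain, stood at 259.7, 372.9 and 284.8 FPKM in shCtrl replicates 1, 2 and 3. In shNAT10 it stood at 173, 177 and 159 FPKM, below all shCtrl libraries. The log2 fold change was -0.83 ± 0.13 (SE, n = 3 per group, limma adjusted p = 0.00307). KRT10 (ENSG00000186395, chromosome 17, 40818117 to 40822595, minus strand) stood at 4.67, 8.21 and 5.02 FPKM in shCtrl and 4.55, 5.14 and 5.35 FPKM in shNAT10 cells, and the groups overlapped. Its log2 fold change was -0.20 ± 0.21 (SE, n = 3 per group, limma adjusted p = 0.46), with a 95% confidence interval of -0.70 to 0.29, wider than that of KRT80.

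**Figure D1:**
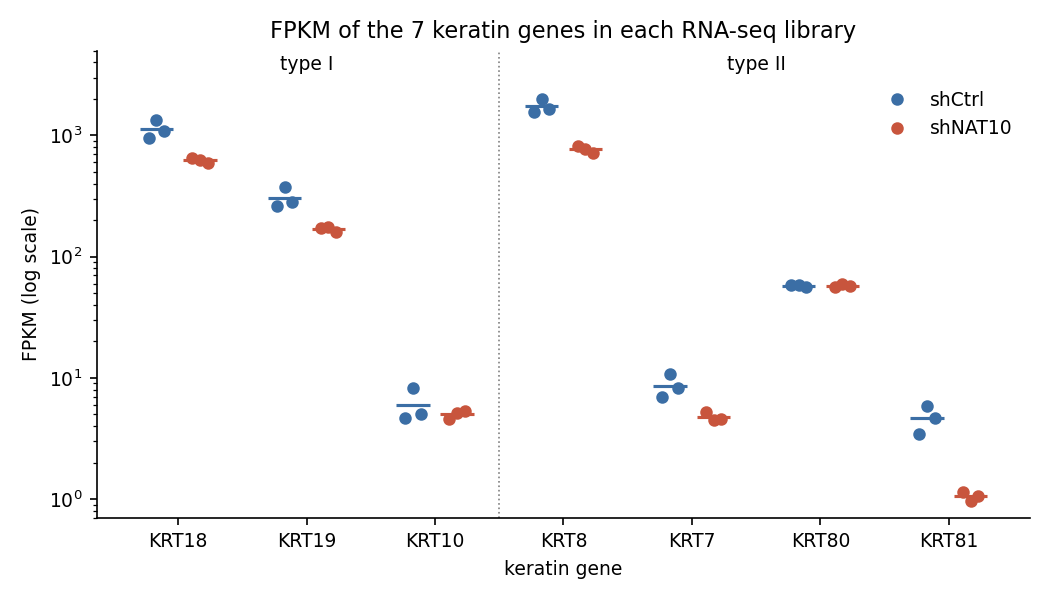
FPKM of the 7 keratin genes (log scale) in each RNA-seq library, 3 shCtrl (blue) and 3 shNAT10 (red) libraries per gene, with a line at each mean. The groups lie apart for KRT18, KRT19, KRT8, KRT7 and KRT81 and overlap for KRT10 and KRT80.

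For 5 of the 7 genes all shNAT10 libraries lay below all shCtrl libraries, which held for 28.6% of all genes tested. The highest value of KRT7, KRT8, KRT18, KRT19, KRT10 and KRT81 was that of shCtrl replicate 2. Without this library the log2 fold changes were -1.07 for KRT8, -0.70 for KRT18, -0.68 for KRT19, -0.66 for KRT7 and -1.83 for KRT81, and all 5 stayed past the threshold, while that of KRT10 was 0.05. The summed FPKM of all genes was 347942 to 390761 in shCtrl and 337414 to 341644 in shNAT10 libraries. Scaled to the same sum (TPM), the median log2 fold change of all genes shifted from -0.01 to 0.10 and the share of higher genes among those called from 49.5% to 61.8%. On that scale KRT8 was at -1.07, KRT18 at -0.73, KRT19 at -0.72, KRT7 at -0.73 and KRT81 at -1.97, again all past the threshold, and KRT80 at 0.11 (limma adjusted p = 0.203).

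**Figure D2:**
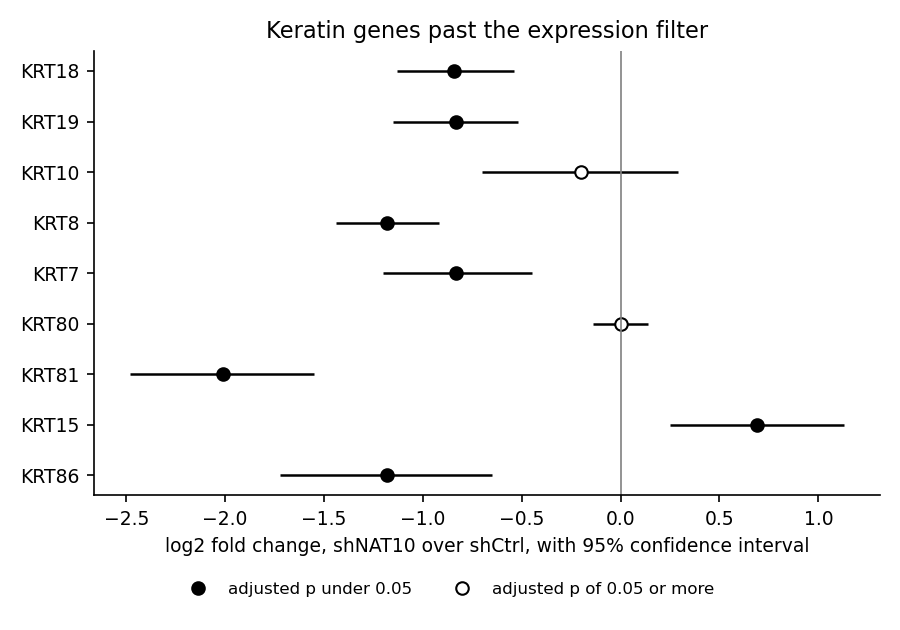
Log2 fold change of shNAT10 over shCtrl cells with its 95% confidence interval for the 9 keratin genes past the expression filter, filled where the adjusted p is under 0.05. The intervals of KRT10 and KRT80 cross 0, and KRT15 is the gene on the higher side.

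The remaining keratin genes were low or at 0. Of all 55, 21 were listed at 0 in all 6 libraries and 46 stayed below the filter, the highest value among them being 0.738 FPKM. Besides the 7 genes only KRT86 and KRT15 passed. KRT15, a type I keratin of basal cells, stood at 1.19, 1.29 and 0.909 FPKM in shCtrl and 1.73, 2.13 and 1.77 FPKM in shNAT10 cells, with a log2 fold change of 0.69 (limma adjusted p = 0.0234). This call was lost without shCtrl replicate 3 and without shNAT10 replicate 1, 2 or 3, with adjusted p between 0.055 and 0.0916. Of the 9 keratin genes past the filter, 6 were lower, 1 was higher and 2 did not pass the test. Among all genes tested 21.2% were lower and 20.8% were higher.

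The keratin RNA pool as a whole was compared next. All keratin genes together summed to 2854, 3823 and 3095 FPKM in shCtrl and 1716, 1653 and 1537 FPKM in shNAT10 replicates 1, 2 and 3, a log2 difference of -0.98 (two-sided exact permutation test, p = 0.1, the smallest that 3 against 3 libraries can give). The 7 genes held 99.7% to 99.9% of this sum in every library. KRT8 and KRT18 together made up 88.1% ± 0.184 of it in shCtrl and 85.2% ± 0.499 in shNAT10 cells (SD, n = 3 per group). The share of KRT80 was 1.80% ± 0.251 in shCtrl and 3.53% ± 0.213 in shNAT10 cells (SD, n = 3 per group).

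Since a filament takes 1 chain of each type, the ratio of the types was taken within each library. It is a ratio of RNA levels and does not give the amounts of protein chains. Type I over type II FPKM was 0.754, 0.831 and 0.795 in shCtrl and 0.942, 0.979 and 0.983 in shNAT10 replicates 1, 2 and 3, so that all shNAT10 libraries lay above all shCtrl libraries. The ratio of KRT18 to KRT8 was 0.618, 0.673 and 0.654 in shCtrl and 0.797, 0.824 and 0.837 in shNAT10 cells, again without overlap. How the 525 exon bases that these 2 genes share bear on the ratio was not tested. Both differences (log2 0.29 and 0.34) had the smallest p that the design allows (two-sided exact permutation test, p = 0.1, adjusted over 3 ratios 0.15). By shCtrl means KRT8 held 1739 of 1813 FPKM of type II, and KRT18 held 1131 of 1444 FPKM of type I. These 2 ratios are therefore largely the same measure and not separate results. The ratio of KRT19 to KRT7 was 35.7 ± 1.58 in shCtrl and 35.9 ± 2.98 in shNAT10 cells (SD, n = 3 per group), and the groups overlapped (exact permutation p = 0.8, adjusted p = 0.8).

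**Figure D3:**
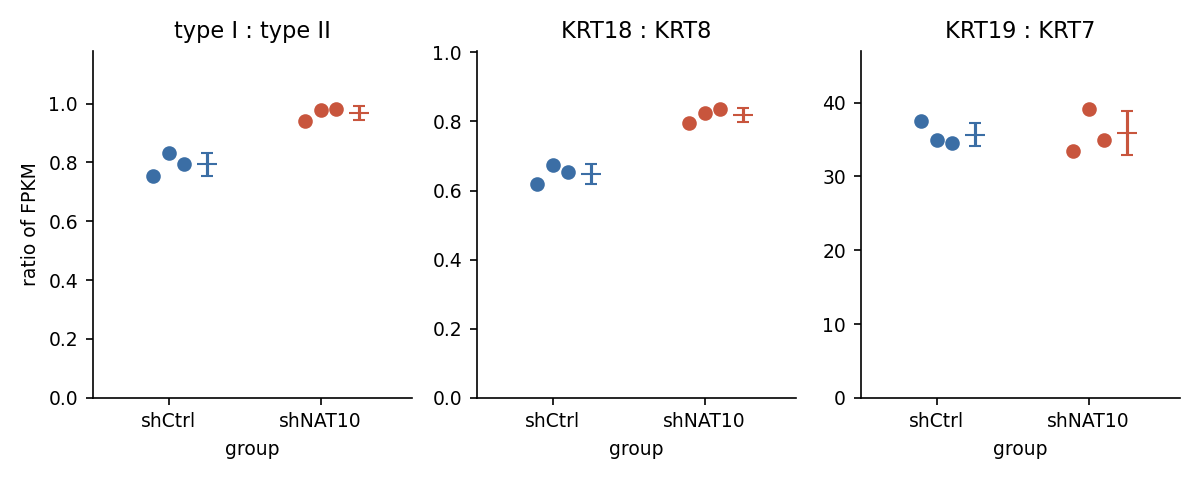
Ratios of FPKM within each library for type I over type II keratins, KRT18 over KRT8 and KRT19 over KRT7, with the mean and SD of 3 libraries beside the points. The first 2 ratios are higher in every shNAT10 library, and the third overlaps.

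The retrocopies of these genes were examined because they can take reads from their parents. The table holds 147 keratin pseudogenes, and 3 passed the filter, all of KRT8. KRT8P3, whose transcript is 97.1% identical to that of KRT8 over 1449 bases, stood at 9.31, 14.4 and 8.86 FPKM in shCtrl and 4.40, 4.26 and 4.96 FPKM in shNAT10 cells (log2 fold change -1.21, limma adjusted p = 0.00251). KRT8P45, 95.1% identical, had a log2 fold change of -1.41 (limma adjusted p = 0.00446). KRT8P12, the least alike of the 3 at 86.1%, was higher in shNAT10 cells, with 4.66, 4.32 and 4.26 FPKM in shCtrl and 5.43, 6.003 and 5.67 FPKM in shNAT10 (log2 fold change 0.36, limma adjusted p = 0.0132). The 50 KRT8 pseudogenes together reached 22.9 FPKM in shCtrl and 14.0 FPKM in shNAT10 cells, and the 67 of KRT18 reached 4.27 and 2.19 FPKM. KRT18P17, 93% identical to KRT18, stood below the filter at 0.856, 1.47 and 0.698 FPKM in shCtrl and 0.593, 0.402 and 0.663 FPKM in shNAT10 cells and was not tested. Their reads cannot be told apart with certainty from those of KRT8 and KRT18.

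The genes whose levels followed KRT8, KRT18, KRT19 and KRT7 most closely were sought by Pearson correlation of log2 values over the 6 libraries, among 11017 protein-coding genes. These are descriptions, since the 6 points share the difference between the 2 groups and the libraries' scaling. For KRT8 they were ITGB5, an integrin subunit, FAAP100 and TIMP2 (r = 0.999 each). For KRT18 they were ORMDL1, RABEPK and TNFRSF12A (r = 0.999 each), and for KRT19 they were RPP25, OTUB1 and MVP (r = 0.999 each). For KRT7 they were SLC25A22, PRKCZ and SHISA4 (r = 0.998 each). Among the 7 keratins, KRT19 was closest to KRT18 (rank 19, r = 0.998) and KRT18 to KRT19 (rank 12, r = 0.998). KRT81 was closest to KRT8 (rank 122, r = 0.993), ahead of KRT18 (rank 226, r = 0.989). KRT18 was closest to KRT7 (rank 40, r = 0.992), ahead of KRT19 (rank 131, r = 0.986). KRT80 was of rank 5530 for KRT8 (r = 0.082).

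Genes that anchor keratin filaments to desmosomes and hemidesmosomes were described from a list of 26, of which 18 passed the filter. Of these, 6 were higher, 1 was lower and 11 did not pass the test, with a median log2 fold change of 0.30. Across all genes tested, 20.8% were higher and 21.2% were lower. PERP, a membrane protein of desmosomes, had a mean of 66.1 FPKM in shCtrl and 236 FPKM in shNAT10 cells (log2 fold change 1.84, limma adjusted p = 3.84e-05). PPL, the plakin periplakin, was higher by 0.83 and PKP4, plakophilin 4, by 0.65 on the log2 scale. JUP, plakoglobin, was the gene that was lower, at -0.34 (limma adjusted p = 0.0179). The plaque protein DSP stood at a log2 fold change of 0.53 (limma adjusted p = 0.0494). On the TPM scale 8 of the list were higher and 1 was lower, where 3355 of all 12982 genes were higher and 2075 were lower. With quantile normalization, median centring or voom 6 of the list were higher and 2 were lower.

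Of 15 genes for other intermediate filaments 7 passed the filter, with a median log2 fold change of 0.33. Of these, 4 were higher while 0 were lower by limma (0 also at an unadjusted p under 0.05 and 0 by voom). The shares over all genes tested, 20.8% higher and 21.2% lower, stand beside every count of this paragraph. NES, nestin, was higher by 1.45, LMNB2, a nuclear lamin, by 1.07 and SYNM, synemin, by 0.91 on the log2 scale. VIM had a log2 fold change of 0.16 (limma adjusted p = 0.245). With quantile normalization or on the TPM scale 5 of the 7 were higher. Of the 9 ductal markers past the filter, KRT7 and KRT19 were the 2 that were lower, and EPCAM (2.20), ESRP2 (0.70) and SOX9 (0.19, limma adjusted p = 0.0498) were higher on the log2 scale. A count of 2 lower in 9 is close to the 21.2% of all genes that were lower. With quantile normalization or voom 2 of the 9 were higher, and on the TPM scale 4. Of 6 mesenchymal markers, SNAI2, ZEB2 and FN1 stayed below the filter and were not tested. Their mean FPKM in shCtrl and shNAT10 cells was 0.392 and 0.132 for SNAI2, 0.384 and 0.410 for ZEB2, and 0.255 and 0.347 for FN1. Of 3 mesenchymal markers past the filter, CDH2 was higher (0.67), and VIM and ZEB1 did not pass the test. With quantile normalization or on the TPM scale 2 of the 3 were higher. COL1A1 and CD14 were lower, by log2 fold changes of -0.69 and -0.75, and their part in the keratin values was not tested.

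The acRIP-seq lists were then read for the same genes. The shCtrl list holds 16892 peaks and the shNAT10 list 15813, each list is 1 per group with no replicates, and no test of a difference was possible. In the shCtrl list 3 of the 7 genes (KRT19, KRT7 and KRT10) carried 4 peaks, and in the shNAT10 list 2 (KRT19 and KRT7) carried 4 peaks. KRT8, KRT18, KRT80 and KRT81 had no peak in either list. The 2 most abundant keratins were thus without a peak, whereas 52.8% of the protein-coding genes with a mean of at least 500 FPKM carried a shCtrl peak and 50.9% a shNAT10 peak. At 100 to 500 FPKM, where KRT19 lies, the shares were 65.4% and 64.6%. At 20 to 100 FPKM, where KRT80 lies, they were 71.5% and 69.4%, and at 1 to 20 FPKM, where KRT7, KRT10 and KRT81 lie, 50% and 48.3%. A missing entry says only that no peak passed the caller's threshold. The FPKM levels come from RNA-seq libraries of captured mRNA, while the acRIP and input libraries were made from fragmented total RNA, so level and peak rest on different library types.

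On KRT19 the shCtrl list gave a peak at chr17:41527829-41528248, 420 bases long with 419 of them coding, with an IP signal 13.6-fold that of the input and a log10 p of -180. The shNAT10 peak at chr17:41527859-41528039 lay wholly inside it, 181 bases long, at a fold enrichment of 3.66 and a log10 p of -43.7. This is the KRT19 stretch printed above. A second shCtrl peak at chr17:41524866-41525405 (fold enrichment 16.1) had 217 of its 540 bases on the main transcript, all coding, the rest being intron there. The second shNAT10 peak at chr17:41524595-41524715 (fold enrichment 6.09) lay outside that transcript, in a retained-intron transcript of the gene. The folds of the 2 lists come from separate calls and were not tested against each other.

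On KRT7 the shCtrl peak had a fold enrichment of 22.5, and the first shNAT10 peak overlapped it at a fold enrichment of 839. The second shNAT10 peak, printed above as the one without the repeat, had a fold enrichment of 16.9. A fold of 839 stood at percentile 89.2 of its list, and one of 22.5 at percentile 36.2. On KRT10 the single shCtrl peak lay near the end of the coding sequence, at 78.5% of the transcript, with a fold enrichment of 41.7 and a log10 p of -77.8. Counted over the bases on the spliced transcript, the middle of all 4 shCtrl peaks, and of 3 of the 4 shNAT10 peaks, was coding. For the second shCtrl peak of KRT19 this is the middle of its 217 bases on the transcript, not of all its 540 bases.

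The repeat was also counted over whole coding sequences. KRT8, without a peak, held 38 matches or 24.8 per kilobase, and KRT81, also without one, held 25.7 per kilobase. KRT10, KRT19 and KRT7, with peaks, held 28, 23.3 and 21.3 per kilobase. KRT80 and KRT18, without peaks, held 16.2 and 15.5 per kilobase. The median over 19684 coding sequences was 9.19 per kilobase, and 95% of them held at least 1 match.

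Peaks were also listed on other keratin genes, of which KRT15 passed the expression filter and the rest had a mean under 0.1 FPKM. The shCtrl list held 6 peaks on KRT13, KRT14 and KRT17, and the shNAT10 list held 9 on KRT6A, KRT13, KRT15, KRT16, KRT17 and KRT23. KRT6A, an inducible keratin of stressed epidermis, had 4 peaks in the shNAT10 list with fold enrichments of 129 to 1340, at 1 to 3 RNA-seq reads per library. KRT14, of basal epidermis, had 2 peaks in the shCtrl list and 0 or 1 read per library. Some listed peaks were weak. The shCtrl peaks at chr17:41586418-41586536 on KRT14 and chr17:41621598-41621717 on KRT17 had a log10 p of -2.08 and a log10 false discovery rate of -0.604. The input reads behind these folds, from libraries of total RNA and not of captured mRNA, were not analysed here. Keratin pseudogenes carried peaks too, 5 genes in the shCtrl list and 1, KRT8P12, in the shNAT10 list. The KRT8P12 peaks of the shCtrl list were 89.6% and 89.8% identical to KRT8 and that of the shNAT10 list 90.7%, so the source of their reads is uncertain. Other peaks of the shCtrl list lay on pseudogenes still closer to a member. The KRT87P peak was 97.9% identical to KRT81 over 237 bases, equally so to KRT83, and 96.6% identical to KRT86. The KRT19P1 peak was 95% identical to KRT19 over 179 bases. The KRT8P41 peak (fold enrichment 875) was 93.9% identical to KRT8 over 179 bases. The absence of a listed peak on KRT8 and KRT81 is read with this limit, since how reads were shared among such copies was not tested.

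**Figure D4:**
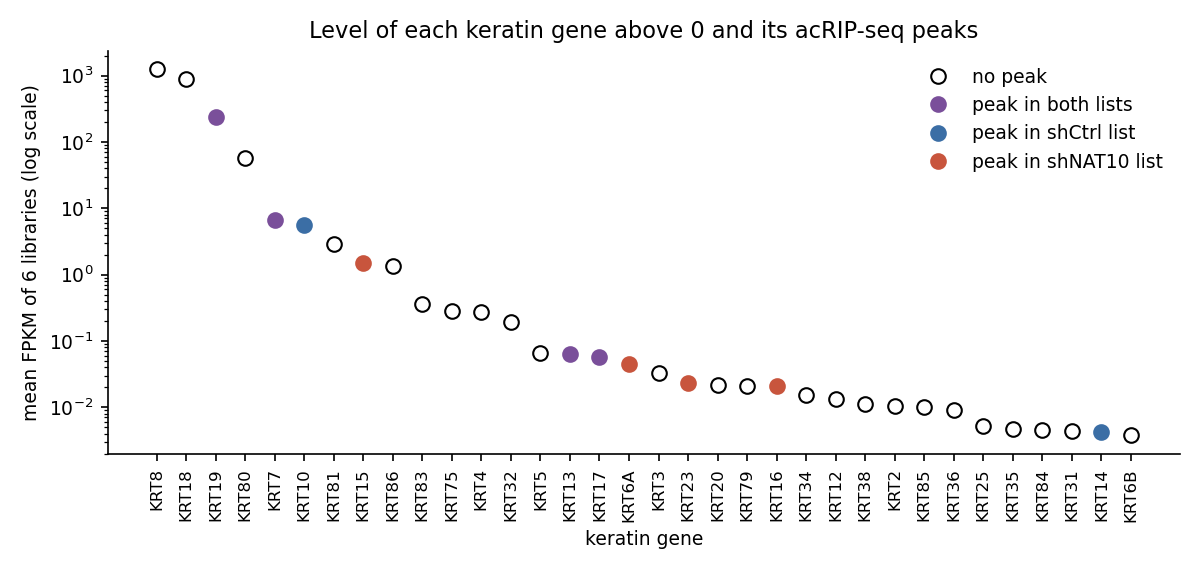
Mean FPKM over the 6 RNA-seq libraries (log scale) of the 34 keratin genes above 0 in at least 1 library, in order of level, coloured by the acRIP-seq list in which they carry a peak. KRT8 and KRT18, the 2 highest, have no peak, and 10 of the 34 have one, 6 of them at under 0.1 FPKM.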

How the data were processed

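Each of the 18 libraries was grouped by its label. The authors deposited FPKM values per gene, 1 column per library, and 1 list of acRIP-seq peaks per group. The deposited lists give each peak's position, its p-value, its enrichment as a fold ratio, and the log10 of the p-value and of the false discovery rate. These log10 values of the deposited lists, handled as a score with no fixed range, were read as the authors' peak caller wrote them. The submitters' processing notes name hg38, HISAT2 2, HTSeq 0.11.0 and DESeq2 1.22.2. The peak caller and the annotation are not given in the sources used here.

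Genes were placed with GENCODE v29 (GRCh38), where 58039 of the 58302 were found. The fit used limma 3.58.1 in R 4.3.3 on log2(FPKM + 0.1) of the 12982 genes with at least 1 FPKM in at least 3 libraries, with the trend option, p-values adjusted by Benjamini-Hochberg over all of them and calls at an adjusted p under 0.05. Fold changes on this scale understate the change of low genes. Whole reads were recovered from the FPKM steps with a length per gene that put its values within 0.02 of whole reads. Lengths were searched until this held, which succeeded for 99.5% of values above 0, so that share does not check the reads. The recovered reads gave the read numbers printed and limma's voom, an alternative chosen after seeing the data. Shared peaks had 1 common base on the same strand. A peak was assigned to the part of the transcript (the gene's longest that codes) holding the middle of its bases on that transcript. Transcripts were compared with blastn 2.17.0, and figures were drawn with matplotlib 3.10.9 in Python 3.11.15. The fit was tested on simulated data.

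The members and lists were chosen with earlier results of these data known. Genes named by rule were the 7 keratins, NAT10, other keratins past the filter, at most 5 pseudogenes of KRT8, KRT18 or KRT19 at 1 FPKM or more, up to 3 rises and 3 falls per list, and the 3 genes most correlated with KRT7, KRT8, KRT18 and KRT19. Others, such as silent keratins with peaks, were named after their values were seen. Same-numbered libraries correlated at -0.0432, 0.0643 and 0.107 in their deviations from the group means and were not taken as pairs. One sequence and 1 marker gene are not reported here.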

Additional observations from a re-analysis of the deposited data

How the results depend on the processing

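The 5 calls of lower keratins held under each of the 15 alternative fits that tested them (pseudocount of 1, no filter, at least 5 FPKM, quantile normalization, median centring, TPM, no trend, the replicate block, voom and each library left out), except that KRT81 lay below the filter of 5 FPKM, which left 4 calls. The log2 fold changes ranged from -1.25 to -0.93 for KRT8, -0.95 to -0.61 for KRT18, -0.94 to -0.68 for KRT19, -0.97 to -0.66 for KRT7 and -2.20 to -1.44 for KRT81. Of all keratins, 0 were higher without the filter, where KRT15 missed the threshold, and 0 with the filter at 5 FPKM, where it was not tested, and leaving out single libraries gave 0 to 1. KRT10 turned to 0.05 without shCtrl replicate 2, with -0.36 to 0.05 over the single libraries left out, and KRT80 turned to 0.11 as TPM and ranged from -0.02 to 0.01 over the single libraries left out. The sum of all keratins (log2 difference -1.07 to -0.86), the ratio of type I to type II (0.25 to 0.32) and that of KRT18 to KRT8 (0.30 to 0.37) kept their direction under all 10 alternatives, among them TPM, the pseudogenes added to their parents and the 7 genes alone. The ratio of KRT19 to KRT7 ranged from -0.06 to 0.05 (log2) over single libraries left out. With the replicate number as a block, in which same-numbered libraries correlated at -0.0432, 0.0643 and 0.107 and so were not shown to be pairs, 5 of the 7 were lower, the lowest change being that of KRT81 at -2.01 (limma adjusted p = 0.00281), and the sum of all keratins differed by -0.98 (exact sign permutation p = 0.25, the smallest that 3 pairs can give).

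Keeping the upper 50% of each list by fold, 0 of the 7 genes had a shCtrl peak (0 peaks) and 1 a shNAT10 peak (1 peak), with 0 shared. Among the 50% with the lowest p-values, 1 had a shCtrl peak (2 peaks) and 1 a shNAT10 peak (1 peak), with 0 shared. With a reciprocal overlap of 50%, 1 shCtrl peak was shared in place of 2. The cause was not tested beyond the smaller lists these settings keep. KRT81, KRT7 and KRT10 rest on 35 to 379 reads per library, where counting error is widest.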
